A study of Mus musculus with 8 samples.

Results

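The dual-specificity phosphatases Dusp1, Dusp2, Dusp4, Dusp5, Dusp6 and Dusp10 and the adaptor proteins Spry1, Spry2, Spred1 and Spred2 were followed through RNA sequencing of CD8 T cells taken from mouse tumours. These 10 genes were chosen by their symbols as negative feedback regulators of MAP kinase signalling, with earlier results of these data known. All 10 have a row among the 24976 genes of the count table. All 10 also passed the filter on low counts, which kept 13073 genes. DUSP enzymes switch MAP kinases off by removing phosphate from the threonine and the tyrosine that activate them, and they differ in where they act and in the kinases they prefer. Sprouty and Spred proteins act further upstream and limit activation of RAS and RAF. In T cells the antigen receptor activates ERK, JNK and p38, and ERK signalling in turn raises transcription of many of its own inhibitors.

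B16-OVA melanoma cells, which express the antigen ovalbumin, were grown under the skin of Rag2-/- mice, which lack mature T and B cells, for 10 days before CD8 T cells were transferred. The labels describe the donors as Cd8Cre mice with both Nr4a1 and Nr4a2 floxed that carry OT-I, an ovalbumin-specific T cell receptor transgene, or as WT mice. The first are called dKO here, by label. Whether WT donors carried OT-I is not stated, so the receptor and the genotype cannot be told apart in any comparison of genotypes. On day 10 after transfer, CD3e+CD8+ cells of each mouse were sorted as PD1+Tim3+ or PD1+Tim3-, where PD1 and Tim3 are inhibitory receptors and Tim3 marks the more terminally exhausted cells. The 4 groups, dKO PD1+Tim3+, WT PD1+Tim3+, dKO PD1+Tim3- and WT PD1+Tim3-, hold 2 libraries each. The labels do not say which libraries came from the same mouse. Where a PD1+Tim3+ and a PD1+Tim3- library share one, the 4 libraries of a genotype are not independent, and p-values of the averaged genotype comparison are too small.

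The shallowest library, dKO PD1+Tim3- replicate 2, held 1944999 counts and the deepest, WT PD1+Tim3+ replicate 2, held 13418762. Levels are given in CPM, counts scaled to the TMM-adjusted library size, and levels of different genes are compared in CPM per kilobase of exon. Nr4a1, a targeted gene, went against the genotype label. It stood at 1194 and 1175 CPM in the PD1+Tim3+ libraries labelled dKO against 803 and 789 CPM in WT, and at 1331 and 1489 CPM in the PD1+Tim3- libraries labelled dKO against 979 and 824 CPM in WT. Nr4a2 stood between 929 and 1034 CPM in all 8 libraries. Counts per gene may include exons outside the floxed part, and all genotype directions below are those of the labels. Havcr2, which encodes Tim3, fitted the sort, at 41.8 to 58.2 CPM in PD1+Tim3+ libraries and 2.28 to 3.61 CPM in PD1+Tim3- libraries. All 5 CD8 T cell markers with a row (Cd3d, Cd3e, Cd3g, Cd8a and Cd8b1) were detected in every library. Cd4, the defining marker of CD4 T cells, was at 0 counts in 6 of 8 libraries, and Sox10, which marks melanoma cells, in 7 of 8, while the regulatory T cell gene Foxp3 and the pigment cell genes Tyr, Pmel and Mitf were detected in every library.

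Upstream sequence was read from the RefSeq promoter table (GRCm38.p6), which holds 9 of the 10 genes and leaves out Dusp4. The 200 bases before the start site are printed 5′ to 3′ on the gene's strand for the genes whose window held a searched motif and for Dusp6 and Dusp10, whose levels differed between the genotype labels in opposite directions. Capitals mark the motif match, and the windows of Dusp6 and Dusp10 hold none.
Dusp1, chr17:26508473-26508672, minus strand: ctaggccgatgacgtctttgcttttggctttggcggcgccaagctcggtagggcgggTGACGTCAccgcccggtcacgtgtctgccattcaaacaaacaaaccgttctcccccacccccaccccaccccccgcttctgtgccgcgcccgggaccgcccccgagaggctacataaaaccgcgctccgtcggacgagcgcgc
Dusp2, chr2:127335959-127336158, plus strand: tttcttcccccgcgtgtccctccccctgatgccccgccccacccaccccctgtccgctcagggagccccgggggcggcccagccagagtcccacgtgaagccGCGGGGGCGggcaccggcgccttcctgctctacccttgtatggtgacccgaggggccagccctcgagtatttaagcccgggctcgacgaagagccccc
Dusp5, chr19:53528945-53529144, plus strand: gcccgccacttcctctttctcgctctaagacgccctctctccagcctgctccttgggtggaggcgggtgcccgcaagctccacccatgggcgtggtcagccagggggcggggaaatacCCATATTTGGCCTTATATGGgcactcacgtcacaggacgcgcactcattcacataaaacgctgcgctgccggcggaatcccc
Dusp6, chr10:99263031-99263230, plus strand: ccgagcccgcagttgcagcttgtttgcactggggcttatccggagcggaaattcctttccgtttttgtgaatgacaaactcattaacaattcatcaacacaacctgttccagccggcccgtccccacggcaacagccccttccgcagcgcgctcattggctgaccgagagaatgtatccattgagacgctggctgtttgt
Dusp10, chr1:184034181-184034380, plus strand: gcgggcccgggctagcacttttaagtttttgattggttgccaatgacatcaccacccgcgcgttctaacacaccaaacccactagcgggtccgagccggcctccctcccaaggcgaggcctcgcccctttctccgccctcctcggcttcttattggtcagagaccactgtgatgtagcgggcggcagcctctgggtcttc
Dusp1 held a cyclic AMP response element (CRE, TGACGTCA), the site of CREB and ATF factors. Its first base is at position -143 from the RefSeq start site, from which all motif positions are counted. Dusp2 held a site for the EGR zinc finger factors (GCGNGGGCG) at -98. Dusp5 held 2 adjacent CArG boxes, the element that serum response factor binds, at -82 and -72. Matches were sought on both strands in 32851 promoter windows of the same length, which run from 250 bases before the start site to 50 after it. Of these windows, 1.79% held the CRE, 5.55% the EGR site and 1.63% a CArG box. The NBRE (AAAGGTCA), which NR4A receptors bind as monomers, was in 1.51% of all windows and in 0 of the 9. The AP-1 site (TGANTCA, 7.81% of windows) and the ETS sequence searched (ACAGGAA, 8.67%) were also in 0 of the 9. Other forms of the ETS site were not searched.

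Per kilobase of exon the 10 genes spanned a wide range of levels. Dusp2, a nuclear phosphatase first described in activated T cells, was highest in every group. Its level averaged 366 ± 55.4 CPM per kilobase in dKO PD1+Tim3+ and 290.4 ± 14.4 in WT PD1+Tim3+, and 251 ± 6.69 in dKO PD1+Tim3- and 166 ± 17.9 in WT PD1+Tim3- (SD, n = 2 each). Over the 8 libraries the mean per kilobase fell in the order Dusp2 at 268, Dusp5 at 116, Dusp1 at 72.7, Dusp10 at 22.2, Dusp6 at 17.7, Dusp4 at 16.3, Spred2 at 10.1, Spry2 at 8.08, Spry1 at 3.21 and Spred1 at 1.93. Dusp2 exceeded Dusp5, and Dusp5 exceeded Dusp1, in 8 of 8 libraries. Neighbours from Dusp10 to Spry2 were not separated in this way: Dusp10 exceeded Dusp6 in 6, Dusp6 exceeded Dusp4 in 5, Dusp4 exceeded Spred2 in 6, and Spred2 exceeded Spry2 in 5 of 8. Spry2 exceeded Spry1, and Spry1 exceeded Spred1, in all 8. Dusp2 alone made up 46.5 to 48.1% of the summed CPM of the 10 genes in dKO PD1+Tim3+ libraries against 35.6 to 38.7% in WT, and 42.8 to 43.8% in dKO PD1+Tim3- libraries against 33.1 to 33.4% in WT.

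The inducible nuclear phosphatases are Dusp1, Dusp2, Dusp4 and Dusp5. Dusp1, which acts on p38, JNK and ERK, stood at 275 and 234 CPM in dKO PD1+Tim3+ against 295 and 291 CPM in WT, and at 215 and 209.9 CPM in dKO PD1+Tim3- against 181 and 224 CPM in WT. Every PD1+Tim3+ library was above every PD1+Tim3- library, and 22.9% of all genes had such a separation in either direction. Dusp1 lies on chromosome 17 from 26505590 to 26562128 on the minus strand (GENCODE annotation, GRCm38). There exons of one long transcript overlap exons of Ergic1 on the other strand. Since it is not known whether counting used strand, the counts of Dusp1 are uncertain. Its annotated span begins upstream of the RefSeq start site used for its printed window. Dusp2 stood at 811 and 654 CPM in dKO PD1+Tim3+ against 602 and 561 CPM in WT, and at 493 and 512 CPM in dKO PD1+Tim3- against 307 and 358 CPM in WT. Within each population the libraries labelled dKO were above those of WT, and within each genotype PD1+Tim3+ was above PD1+Tim3-. Dusp2 lies on chromosome 2 from 127336159 to 127338376 on the plus strand and overlaps no other annotated gene.

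Dusp4, which acts on ERK and JNK, stood at 63.8 and 54.9 CPM in dKO PD1+Tim3+ against 56.6 and 54.0 CPM in WT, and at 31.7 and 31.0 CPM in dKO PD1+Tim3- against 34.3 and 30.5 CPM in WT. The genotypes overlapped in both populations. Every PD1+Tim3+ library was above every PD1+Tim3- library, and 22.9% of all genes had such a separation in either direction. Dusp4 lies on chromosome 8 from 34807297 to 34819894 on the plus strand. Dusp5, which is selective for ERK, stood at 335 and 292 CPM in dKO PD1+Tim3+ against 401 and 467 CPM in WT, and at 203 and 189 CPM in dKO PD1+Tim3- against 162 and 245 CPM in WT. The genotypes were apart in PD1+Tim3+ cells, as for 41.4% of all genes. They overlapped in PD1+Tim3- cells, where the 2 WT libraries lay on either side of those labelled dKO. Dusp5 lies on chromosome 19 from 53529109 to 53542431 on the plus strand, and an antisense gene overlaps its exons. The annotated span begins upstream of the RefSeq start site, so the printed window of Dusp5, which ends at 53529144, runs into it.

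Dusp6, the cytoplasmic phosphatase of ERK, stood at 78.2 and 59.5 CPM in dKO PD1+Tim3+ against 51.4 and 52.7 CPM in WT, and at 59.0 and 66.1 CPM in dKO PD1+Tim3- against 39.7 and 36.5 CPM in WT. All 4 libraries labelled dKO were above all 4 WT libraries, and 2.93% of all genes had such a separation in either direction. Dusp6 lies on chromosome 10 from 99263231 to 99267489 on the plus strand. Dusp10, a phosphatase of JNK and p38, stood at 42.3 and 37.3 CPM in dKO PD1+Tim3+ against 65.3 and 62.6 CPM in WT, and at 65.9 and 69.8 CPM in dKO PD1+Tim3- against 102 and 95.4 CPM in WT. Its order was the reverse of that of Dusp2, with dKO below WT in each population and PD1+Tim3+ below PD1+Tim3- in each genotype. Dusp10 lies on chromosome 1 from 184013302 to 184075636 on the plus strand, a span that begins upstream of the RefSeq start site used for its printed window.

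Of the Sprouty genes, Spry2 stood at 19.7 and 14.96 CPM in dKO PD1+Tim3+ against 27.4 and 27.6 CPM in WT, and at 9.05 and 8.40 CPM in dKO PD1+Tim3- against 14.5 and 13.3 CPM in WT. Libraries labelled dKO were below WT in each population, and every PD1+Tim3+ library was above every PD1+Tim3- library. Spry1 stood at 8.94 and 8.31 CPM in dKO PD1+Tim3+ against 8.50 and 9.35 CPM in WT, and at 11.6 and 9.45 CPM in dKO PD1+Tim3- against 8.96 and 9.54 CPM in WT. Its libraries overlapped between the genotypes in both populations, over a narrow range. The smallest counts of both genes came from replicate 2 of dKO PD1+Tim3-, with 16 counts of Spry2 and 18 of Spry1, which limits the precision there. Spry2 lies on chromosome 14 from 105891947 to 105896819 on the minus strand. Spry1 lies on chromosome 3 from 37639947 to 37644598 on the plus strand, and exons of Gm42922 on the other strand overlap its exons.

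The Spred proteins bring the RAS inactivator neurofibromin to the membrane. Spred1 stood at 15.3 and 10.9 CPM in dKO PD1+Tim3+ against 8.33 and 10.8 CPM in WT, and at 13.2 and 17.8 CPM in dKO PD1+Tim3- against 15.5 and 12.9 CPM in WT. The genotypes overlapped in PD1+Tim3- cells. In PD1+Tim3+ cells they were separated by a small gap, and 41.4% of all genes were also apart there. Spred2 stood at 37.97 and 40.1 CPM in dKO PD1+Tim3+ against 40.8 and 39.5 CPM in WT, and at 50.5 and 54.1 CPM in dKO PD1+Tim3- against 53.6 and 55.4 CPM in WT. The genotypes overlapped in both populations. Every PD1+Tim3+ library was below every PD1+Tim3- library, and 22.9% of all genes had such a separation in either direction. Spred1 lies on chromosome 2 from 117121374 to 117182279 and Spred2 on chromosome 11 from 19924375 to 20024026, both on the plus strand.

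**Figure D1:**
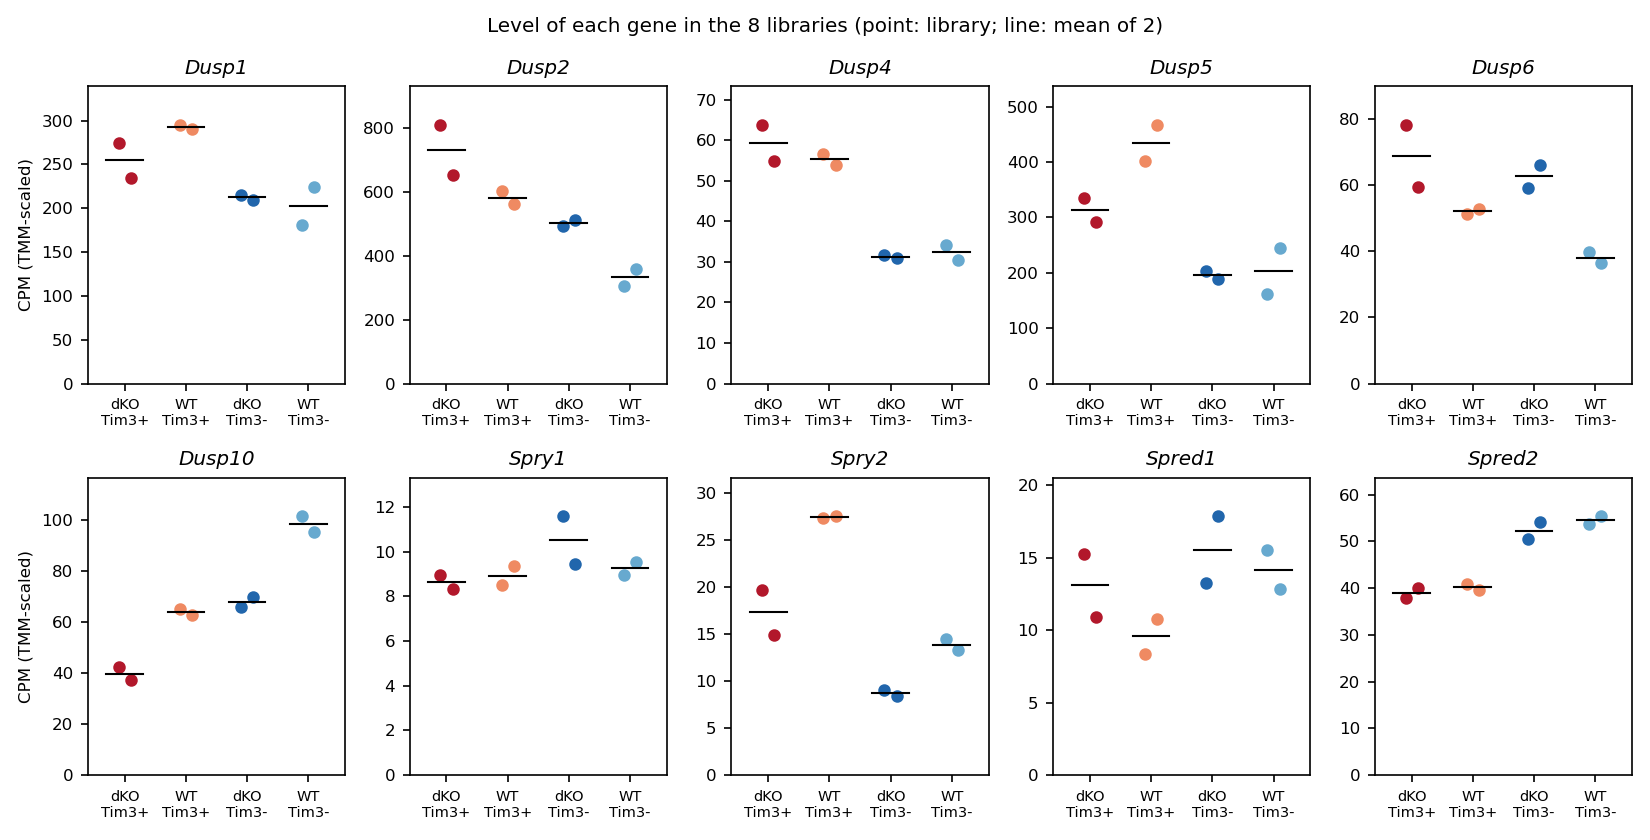
Level of each of the 10 genes in every library, in CPM on a linear axis from 0, with a point for each library and a line at the mean of the 2 libraries of a group, dKO by label. Dusp2, Dusp4, Dusp5 and Spry2 stand higher in PD1+Tim3+ cells, Dusp10 and Spred2 stand lower there, and Dusp6 lies at 59.0 CPM or more in every library labelled dKO against at most 52.7 CPM in WT.

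The genotype comparison asks how these regulators differ between cells labelled as lacking Nr4a1 and Nr4a2 and WT cells. Averaged over both populations, 3 of the 10 genes passed an adjusted p of 0.05 (edgeR quasi-likelihood test, adjusted over all 13073 genes tested), against 0.864% of all genes. The ERK phosphatase Dusp6 was higher in the libraries labelled dKO, while the JNK and p38 phosphatase Dusp10 and the RAS pathway inhibitor Spry2 were lower. The 10 genes did not move together, with 5 positive and 5 negative fold changes and a median of -0.01 against 0.00 for all genes.

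Dusp10 had a log2 fold change of -0.61 ± 0.08 (SE), an adjusted p of 0.00313 and 0.653 times the WT level. The call held without each of the 8 libraries in turn, with adjusted p from 0.00207 to 0.0483. Dusp6 differed by 0.55 ± 0.10, adjusted p 0.0253, at 1.46 times the WT level, and its 4 libraries labelled dKO did not overlap the 4 of WT, a separation seen in either direction in 2.93% of all genes. Spry2 differed by -0.66 ± 0.13, adjusted p 0.0383, at 0.633 times the WT level. The calls of Dusp6 and Spry2 depended on single libraries. Dusp6 was still past the threshold only when the library left out was one of dKO PD1+Tim3+, over adjusted p from 0.00258 to 0.137, and Spry2 only without replicate 1 of dKO PD1+Tim3+, over 0.0119 to 0.294. Without any single library the fold change of Dusp6 stayed between 0.44 and 0.64 and that of Spry2 between -0.77 and -0.56. With a replicate block Dusp6 and Spry2 both missed the threshold, at an adjusted p of 0.0634, and Dusp10 held at 0.0132. Spry2 also missed it in DESeq2 and limma-voom, with adjusted p up to 0.191 over the other settings.

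The most abundant member, Dusp2, had a positive fold change of 0.46 ± 0.10 that missed the threshold, at an adjusted p of 0.0595. It was called by DESeq2, by limma-voom, with robust empirical Bayes and when low-count genes were kept, and its adjusted p over all other settings ran from 7.93e-04 to 0.170. For the remaining 6 genes the 95% interval of the log2 difference included 0. It ran from -0.27 to 0.14 for Dusp1, -0.16 to 0.22 for Dusp4, -0.54 to 0.02 for Dusp5, -0.22 to 0.40 for Spry1, -0.13 to 0.58 for Spred1 and -0.22 to 0.11 for Spred2. Differences beyond these limits lie outside the intervals for the averaged contrast. The intervals are not limits of detection, since Dusp2, with an interval from 0.25 to 0.68, also missed the threshold.

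Within PD1+Tim3+ cells 1 of the 10 genes was called, Dusp10, against 0.627% of all genes. Its log2 fold change was -0.68 ± 0.11, adjusted p 0.0208. The call was lost in DESeq2, with a replicate block, in a fit of these 4 libraries alone, and without dKO PD1+Tim3- replicate 1 or 2, WT PD1+Tim3+ replicate 1 or 2 or dKO PD1+Tim3+ replicate 2, over adjusted p from 0.00636 to 0.201. Spry2 differed by -0.66 ± 0.15 (adjusted p 0.107), Dusp5 by -0.47 ± 0.18 (0.303), Dusp6 by 0.40 ± 0.13 (0.238), Dusp2 by 0.33 ± 0.14 (0.357) and Spred1 by 0.41 ± 0.22 (0.506), none past the threshold. A total of 5 of the 10 genes had an unadjusted p under 0.05, against 12.0% of all genes.

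Within PD1+Tim3- cells 0 of the 10 genes were called by edgeR, against 0.0459% of all genes, and 4 had an unadjusted p under 0.05, against 8.27% of all genes. DESeq2 and limma-voom also called 0. These 4 were the genes that led the averaged contrast. Dusp6 differed by 0.70 ± 0.15 (adjusted p 0.152), Dusp2 by 0.60 ± 0.14 (0.227), Dusp10 by -0.55 ± 0.11 (0.126) and Spry2 by -0.66 ± 0.21 (0.481). Each had both libraries labelled dKO on one side of both WT libraries, as had 41.3% of all genes in this comparison. Dusp6, Dusp2 and Dusp10 were called when the low-count filter was dropped or robust empirical Bayes was used, and over the other settings the adjusted p of Dusp6 ran from 0.00199 to 0.319.

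**Figure D2:**
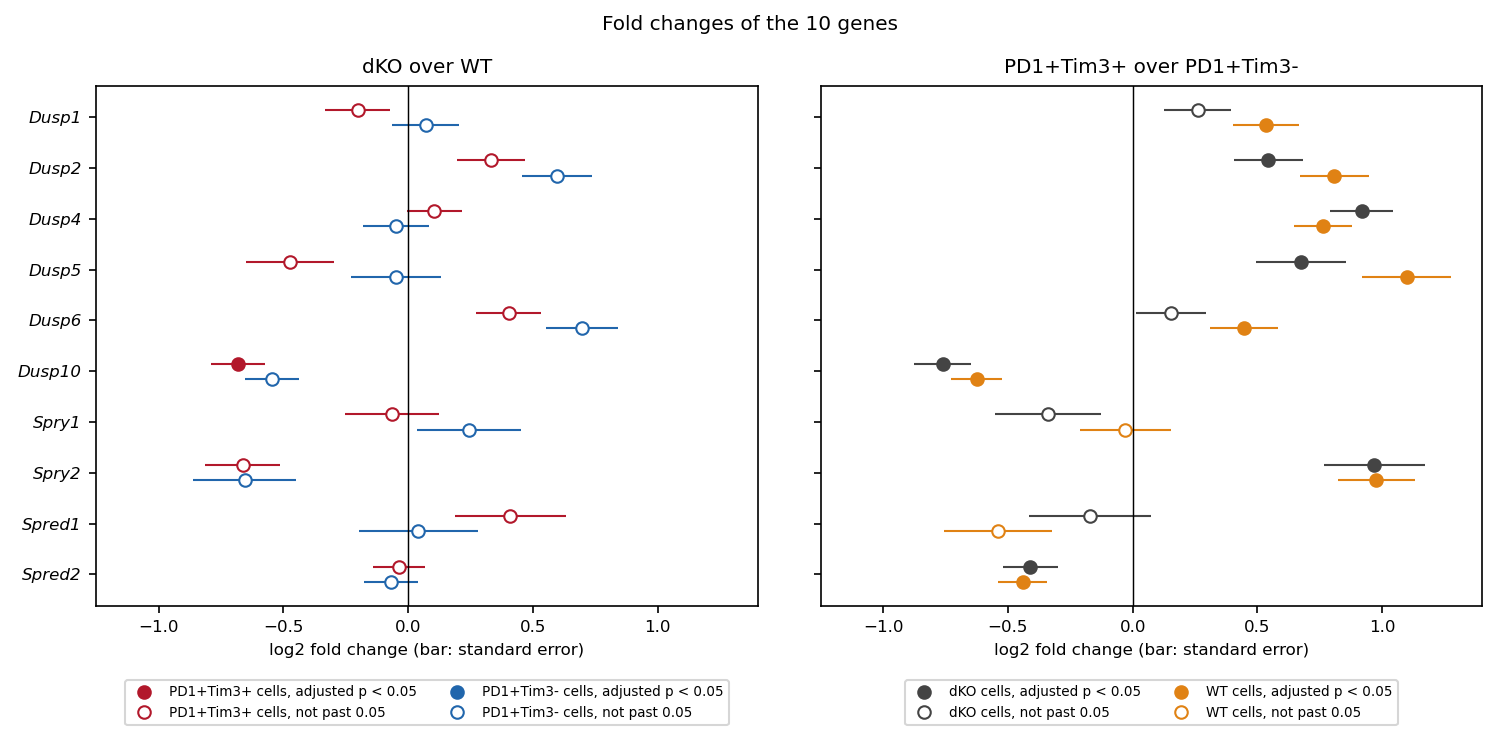
Log2 fold change of each gene with its standard error, for dKO (by label) over WT in each population on the left and for PD1+Tim3+ over PD1+Tim3- in each genotype on the right. Filled points are past an adjusted p of 0.05. On the left 1 point is filled, that of Dusp10 in PD1+Tim3+ cells, and on the right 6 genes are filled for dKO and 8 for WT.

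The population comparison asks how the regulators differ between Tim3+ and Tim3- cells of the PD1+ pool. Most of the phosphatases were higher in PD1+Tim3+ cells. Averaged over both genotypes, 8 of the 10 genes passed the threshold against 22.8% of all genes, 6 of them higher (12.2% of all genes) and 2 lower (10.6%). Dusp1, Dusp2, Dusp4, Dusp5, Dusp6 and Spry2 rose, while Dusp10 and Spred2 fell. The median over the 10 genes was 0.35 against 0.01 for all genes.

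Spry2 differed by 0.97 ± 0.13, adjusted p 4.53e-04, at 1.96 times the PD1+Tim3- level. Dusp5 differed by 0.89 ± 0.13 (adjusted p 6.99e-04), Dusp4 by 0.84 ± 0.09 (1.04e-04) and Dusp2 by 0.68 ± 0.10 (7.35e-04). Dusp10 differed by -0.69 ± 0.08, adjusted p 1.75e-04, at 0.618 times the PD1+Tim3- level, and Spred2 by -0.43 ± 0.07, adjusted p 0.00189. All 4 PD1+Tim3+ libraries lay on one side of all 4 PD1+Tim3- libraries for each of these 6 genes and for Dusp1, as for 22.9% of all genes. The calls of these 6 genes held without each of the 8 libraries in turn. Dusp1 differed by 0.40 ± 0.09, adjusted p 0.0110, and was lost without dKO PD1+Tim3- replicate 1 or WT PD1+Tim3+ replicate 1, at an adjusted p of up to 0.0530. Dusp6 differed by 0.30 ± 0.10, adjusted p 0.0471. Its call held only without dKO PD1+Tim3+ replicate 2, over adjusted p from 0.00402 to 0.212, and was lost with RLE size factors, DESeq2, limma-voom and a replicate block, at up to 0.211.

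The remaining 2 genes did not pass. Spry1 differed by -0.18 with a 95% interval from -0.49 to 0.12, and Spred1 by -0.35 with an interval from -0.71 to 0.00.

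In cells labelled dKO, 6 of the 10 genes were called against 9.93% of all genes. Dusp4 differed by 0.92 ± 0.13 (adjusted p 0.00211), Spry2 by 0.97 ± 0.20 (0.0167), Dusp5 by 0.68 ± 0.18 (0.0391), Dusp2 by 0.54 ± 0.14 (0.0337), Dusp10 by -0.76 ± 0.12 (0.00340) and Spred2 by -0.41 ± 0.11 (0.0404). Dusp1 at 0.26 ± 0.13 (adjusted p 0.272) and Dusp6 at 0.15 ± 0.14 (0.563) were not called. The calls of Dusp4 and Dusp10 were lost without dKO PD1+Tim3- replicate 1 alone, at adjusted p of 0.0639 and 0.0521. Spry2 was lost without any of that replicate, dKO PD1+Tim3- replicate 2 and dKO PD1+Tim3+ replicate 1, at up to 0.133. Dusp2 and Dusp5 were called only without WT PD1+Tim3- replicate 1 or 2 or dKO PD1+Tim3+ replicate 2, at up to 0.193 and 0.198 otherwise, and Spred2 was lost without each of the 8 libraries, at 0.0583 to 0.179. Dusp2 was also lost with total counts, a replicate block and a fit of these 4 libraries alone, at up to 0.0764, and Dusp5 with robust empirical Bayes and a replicate block, at up to 0.0725. Spred2 was still called only with RLE size factors and robust empirical Bayes, at up to 0.337 otherwise.

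In WT cells 8 of the 10 genes were called against 17.0% of all genes. Dusp5 differed by 1.10 ± 0.18 (adjusted p 0.00336), Spry2 by 0.98 ± 0.15 (0.00298), Dusp2 by 0.81 ± 0.14 (0.00407) and Dusp4 by 0.76 ± 0.12 (0.00252). Dusp1 differed by 0.53 ± 0.13 (0.0183), Dusp6 by 0.45 ± 0.14 (0.0447), Dusp10 by -0.63 ± 0.10 (0.00340) and Spred2 by -0.44 ± 0.10 (0.0120). Spred1 at -0.54 ± 0.22 (0.113) and Spry1 at -0.03 ± 0.18 (0.969) were not called. The calls of Dusp4, Dusp5, Dusp10 and Spry2 held without each of the 8 libraries in turn. Dusp2 was lost without WT PD1+Tim3+ replicate 1, at 0.0544. Dusp1 was lost without that replicate, WT PD1+Tim3+ replicate 2 or WT PD1+Tim3- replicate 1, at up to 0.162, and Spred2 without any of the 4 WT libraries, at up to 0.126. With a library left out, Dusp6 was called only without either dKO PD1+Tim3+ library, at up to 0.202 otherwise. It was also lost with RLE size factors, DESeq2 and a replicate block, at up to 0.210, and Spred2 with total counts and DESeq2, at up to 0.164.

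Other features of the libraries moved with the population. Ribosomal RNA genes took 6.52 to 8.36% of counts in PD1+Tim3+ libraries against 1.60 to 2.37% in PD1+Tim3- libraries. The summed level of 14 genes that tissue dissociation induces, all of them in the table, was 5318 to 6174 CPM in PD1+Tim3+ libraries against 3912 to 4929 CPM in PD1+Tim3- libraries, with Atf3, Btg2, Fosb, Ier2, Jund, Nfkbiz and Klf6 called higher and Jun lower in the averaged contrast, against 22.8% of all genes called. The summed level of the 10 regulators was 1405 to 1687 CPM against 918 to 1167 CPM. The part of ribosomal RNA and of dissociation in these results was not tested. Of the markers of other cells, Itgax, a dendritic cell marker that activated T cells can also express, made up most of its list, and the summed CPM of the 6 dendritic cell markers was 49.0 to 55.7 in PD1+Tim3+ libraries against 25.9 to 34.1 in PD1+Tim3- libraries, while Clec9a was at 0 in 6 of 8. Summed melanoma markers (7 genes) were at 18.9 to 20.5 CPM against 18.0 to 22.2 CPM, and Tyr accounted for up to 17.1 CPM of them. Macrophage markers (7 genes with a row) summed to 10.2 to 12.2 CPM against 5.77 to 11.9 CPM. Of these, Cd68 was detected in every library, at up to 10.9 CPM. Lyz2 was at 0 in 1 of 8 and Fcgr1 in 7 of 8. Neutrophil markers (3 genes) summed to 2.04 to 4.06 CPM against 2.10 to 4.69 CPM. Csf3r was detected in every library, at up to 4.69 CPM, and S100a8 and S100a9 were at 0 in 5 of 8 each. Fibroblast and endothelial markers (6 genes) summed to 21.6 to 27.2 CPM against 21.5 to 37.3 CPM, mostly Pecam1, with Col1a2, Col3a1 and Pdgfrb at 0 in 7 of 8 each. NK cell markers (2 genes) summed to 7.07 to 14.3 CPM against 5.97 to 7.26 CPM, with Ncr1 at 0 in 7 of 8, and CD4 and regulatory T cell markers (2 genes) to 0.554 to 2.55 CPM against 0.207 to 1.58 CPM. In the averaged population contrast Itgax (0.85 ± 0.09, adjusted p 8.87e-05), the NK cell gene Klrb1c (0.65 ± 0.16, 0.0158) and Foxp3 (1.60 ± 0.48, 0.0346) were called higher in PD1+Tim3+ cells, and Pmel (-1.27 ± 0.34, 0.0218) and Pecam1 (-0.39 ± 0.12, 0.0433) lower. Klrb1c and Foxp3 were detected in all 8 libraries, Foxp3 at no more than 32 counts. The part of such cells in the results was not tested. In bulk libraries fewer cells expressing a gene and less RNA per cell cannot be told apart.

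**Figure D3:**
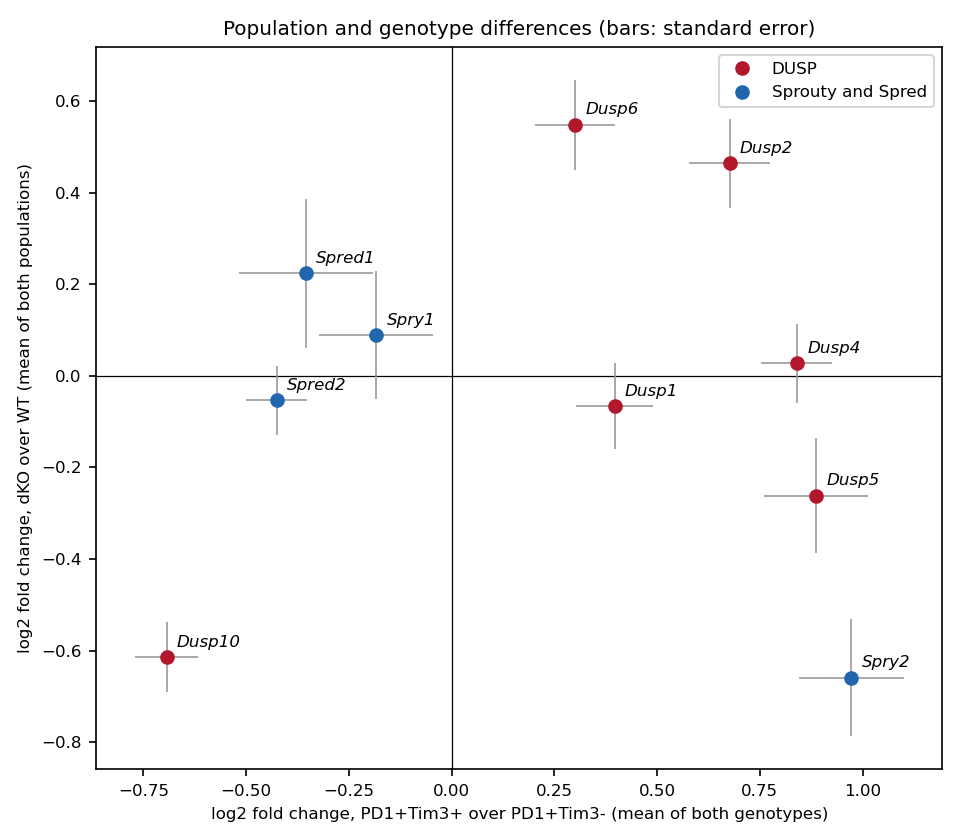
For each of the 10 genes, the averaged log2 fold change of PD1+Tim3+ over PD1+Tim3- (horizontal) and of dKO, by label, over WT (vertical), with standard errors. Dusp6 and Dusp2 lie above 0 on both axes and Dusp10 lies below 0 on both, while Spry2, at 0.97 and -0.66, is higher in PD1+Tim3+ cells and lower in cells labelled dKO.

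Set side by side, the averaged contrasts use the same 8 libraries. Dusp10 was lower in PD1+Tim3+ cells and lower in cells labelled dKO, at -0.69 and -0.61. Spry2 differed by 0.97 between populations and by -0.66 between genotype labels, in opposite directions. For Dusp4 the population difference of 0.84 stood beside a genotype difference of 0.03 ± 0.09.

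The interaction tests whether the genotype difference in PD1+Tim3+ cells departs from that in PD1+Tim3- cells. By edgeR 0 of the 10 genes were called, and 0% of all genes. At an unadjusted p under 0.05 it gave 0 of the 10 genes and 10.1% of all genes, while over all genes DESeq2 called 104 and limma-voom 0, none of them among the 10. The estimates with their 95% intervals were -0.42 for Dusp5, from -0.98 to 0.13, -0.29 for Dusp6, from -0.72 to 0.14, and -0.27 for Dusp1, from -0.68 to 0.14. Those of the called genes Dusp10 and Spry2 were -0.14, from -0.47 to 0.20, and -0.01, from -0.62 to 0.60. A call in one population or genotype and not in the other, as for Dusp10, Dusp1 and Dusp6, was therefore not shown to be a difference between them.

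The other genes of the pathway were followed as 4 lists. Of 10 further DUSP, Sprouty and Spred genes, 8 were tested, and all stood at 21.0 CPM or less on average in each group. Averaged over genotypes, 2 were higher in PD1+Tim3+ cells and 1 lower, against 12.2% of all genes higher and 10.6% lower. Dusp14 averaged 10.5 ± 2.70 CPM in dKO PD1+Tim3+ and 4.76 ± 0.969 in WT PD1+Tim3+, and 3.19 ± 1.43 in dKO PD1+Tim3- and 1.41 ± 0.821 in WT PD1+Tim3- (SD, n = 2 each), a population difference of 1.76 ± 0.30, adjusted p 0.00163. Dusp3, which acts on ERK and JNK, differed by 1.01 ± 0.30 (adjusted p 0.0324) and Spred3 by -0.76 ± 0.16 (0.00673). Dusp7, a cytoplasmic ERK phosphatase, was called in WT cells, at 0.59 ± 0.15 (0.0232), and not in cells labelled dKO, at 0.10 ± 0.18 (0.840), and this difference was not called. Between genotypes 0 of the 8 were called in either population or on average, and 2 had an unadjusted p under 0.05 in the averaged contrast, against 8.89% of all genes.

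The cascades that these regulators restrain held higher and lower genes. Of 20 RAS to ERK cascade genes, all tested, 3 were higher and 1 lower in PD1+Tim3+ cells on average, with a median log2 fold change of 0.08. These 4 of 20 are near the 22.8% of all genes called in this contrast. Mapk3, which encodes ERK1, differed by 0.65 ± 0.10 (adjusted p 7.90e-04), the RAS gene Hras by 0.43 ± 0.12 (0.0226), the MEK gene Map2k2 by 0.34 ± 0.10 (0.0305) and the RAF gene Araf by -0.42 ± 0.10 (0.0131). Of 14 JNK and p38 cascade genes, 13 were tested, with 4 higher and 1 lower, against the same 22.8%. The p38 activators Map2k3 and Map2k6 differed by 0.53 ± 0.09 (0.00135) and 0.56 ± 0.18 (0.0438), the p38 substrates Mapkapk2 and Mapkapk3 by 0.56 ± 0.10 (0.00270) and 0.64 ± 0.10 (9.14e-04), and Mapk11, a p38 kinase, by -0.69 ± 0.13 (0.00355). Between genotypes 0 genes of either cascade were called in edgeR, in either population or on average, and 1 of each list had an unadjusted p under 0.05 in the averaged contrast, both with a negative fold change.

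Of 14 listed ERK-responsive genes 12 were tested, and 3 of the 12 were called higher in the libraries labelled dKO on average, against 0.864% of all genes called in either direction. A positive averaged genotype difference was found for 11 of the 12, with a median of 0.32 against 0.00 for all genes and 50.0% of all genes positive. Those called were Egr1 at 0.46 ± 0.09 (adjusted p 0.0377), Ier3 at 0.66 ± 0.12 (0.0340) and Phlda1 at 0.70 ± 0.11 (0.0142). An unadjusted p under 0.05 was found for 8 of the 12, against 8.89% of all genes. The list was chosen with earlier results of these data known, so these counts are not an independent test. Egr1, an immediate early transcription factor, averaged 474 ± 62.5 CPM in dKO PD1+Tim3+ and 332 ± 12.4 in WT PD1+Tim3+, and 398 ± 20.2 in dKO PD1+Tim3- and 302 ± 0.0165 in WT PD1+Tim3- (SD, n = 2 each). Within PD1+Tim3- cells all 12 were positive, with a median of 0.38 and 0 called by edgeR, and within PD1+Tim3+ cells 8 of 12, with a median of 0.26 and 0 called. Their summed level was 3122 to 3223 CPM in dKO PD1+Tim3+ against 2602 to 2635 CPM in WT, and 2705 to 2719 CPM in dKO PD1+Tim3- against 2155 to 2250 CPM in WT. Fos, Fosb and Ier2 are also in the dissociation list, of which 11 of 14 genes had a positive averaged genotype difference. Jun was called higher on average, at 0.38 ± 0.07 (0.0377), and Atf3 in PD1+Tim3+ cells, at 0.91 ± 0.17 (0.0458), and the part of dissociation here was not tested. Between populations 3 of the 12 were higher and 3 lower on average, against 12.2% and 10.6% of all genes. Phlda1 differed by 1.27 ± 0.11 (3.64e-05), Fosb by 0.57 ± 0.08 (7.55e-04), Ier2 by 0.38 ± 0.09 (0.0104), Myc by -0.61 ± 0.08 (5.18e-04), Egr3 by -0.59 ± 0.08 (4.79e-04) and Egr2 by -0.44 ± 0.09 (0.00587).

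**Figure D4:**
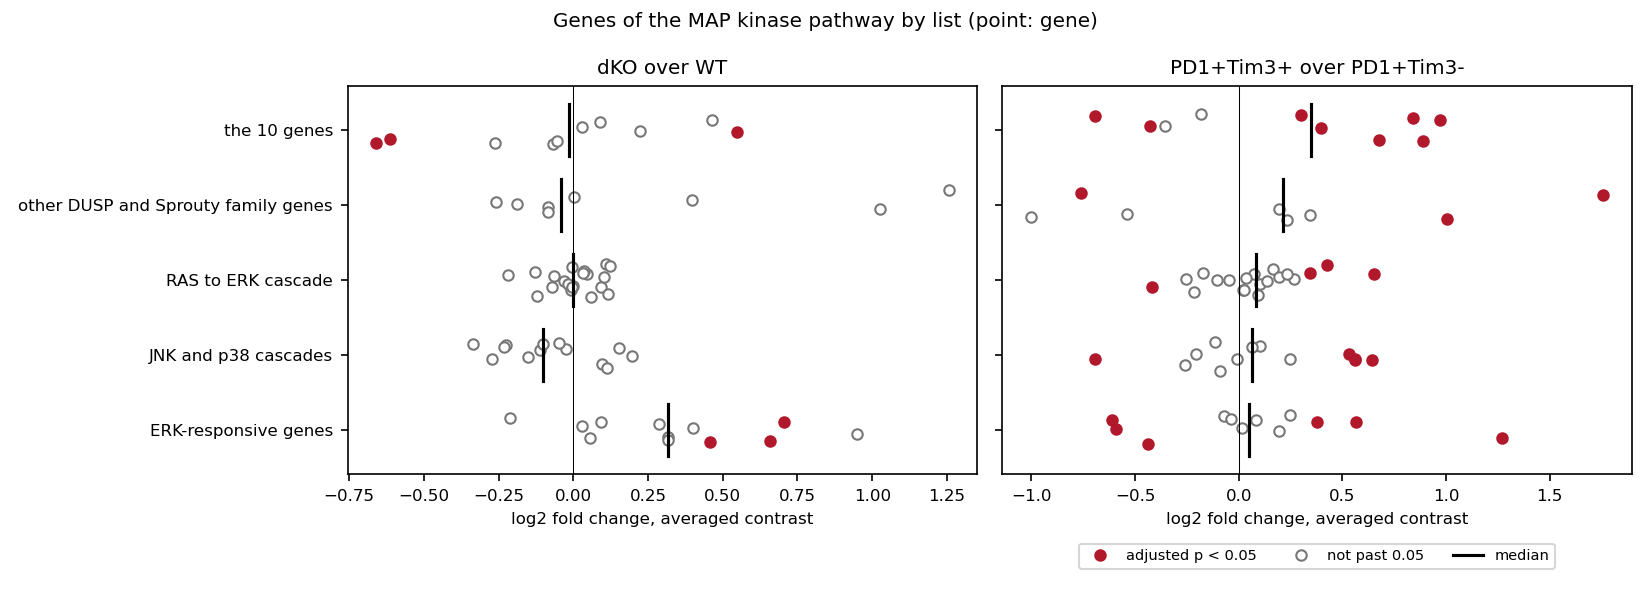
Averaged log2 fold changes of the tested genes of each list, dKO (by label) over WT on the left and PD1+Tim3+ over PD1+Tim3- on the right, with a point for each gene, filled past an adjusted p of 0.05, and a bar at the list's median. Of the 12 ERK-responsive genes 11 lie to the right of 0 on the left panel, 3 of them filled, with a median of 0.32. On the right panel the 10 regulators have a median of 0.35.

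Patterns over the 8 libraries were compared by the root mean square difference of log2 CPM after each gene's mean was removed. Among all tested genes, those nearest to Dusp2 were Icam1 at 0.0611 and Pkp3 at 0.0997, and those nearest to Dusp10 were Eps8l1 at 0.108 and Bend4 at 0.111. Nearest to Dusp6 were Ccdc22 at 0.0720 and Gm40812 at 0.1004. Id2 was among the 2 genes nearest to Dusp4, at 0.0791. Dusp1 was nearest to H2-T23 at 0.0418 and Glmp at 0.0490, Dusp5 to Ccng1 at 0.122 and Atg9b at 0.125, and Spry2 to Stk39 at 0.120 and Zmat3 at 0.148. Spred2 was nearest to Plcb2 at 0.0325 and Ikzf1 at 0.0445, and Spred1 to LOC108167618 at 0.109 and Olfr976 at 0.110. Tuba4a was among the 2 genes nearest to Spry1, at 0.0546. Small values for Dusp1, Spry1 and Spred2 go with their small spread, an SD of 0.14 to 0.25 in log2 units, against 0.63 for Spry2. Within the 10 genes Spry1 and Spred2 were nearest to each other, at 0.195, followed by Dusp2 and Dusp6, at 0.221.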

How the data were processed

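RNA of PD1+Tim3+ and PD1+Tim3- CD8 T cells of each tumour-bearing mouse was extracted with a Qiagen RNeasy Plus kit and sequenced, per the labels' protocols. The authors deposited whole-number counts per gene symbol for 8 libraries. The submitters' processing notes name mm10, cutadapt 1.18 and Bowtie2 2.2.5, without role or order, and no source used here gives the counting tool, its annotation or its strand setting. One line without a gene name, equal to the column totals and so to 100% of the counts of the named genes, was left out. In the table the columns taken as PD1+Tim3- carry only PD1 in their names, beside columns that carry Tim3.

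Counts were fitted with edgeR 4.0.16 (R 4.3.3; TMM scaling, default low-count filter, quasi-likelihood F test) in 1 model of 4 group means with 4 residual degrees of freedom, and p-values were adjusted by Benjamini-Hochberg over 13073 genes. Called means an adjusted p under 0.05. Standard errors were obtained by dividing the log2 fold change by the root of F. Averaged contrasts are means of both populations or both genotypes. With 2 libraries per group, each test borrows its estimate of the spread from all 4 groups. The chi-square per gene between both libraries of a group was 10.3 in dKO PD1+Tim3+ and 3.14 in WT PD1+Tim3+. It was 3.10 in dKO PD1+Tim3- and 16.1 in WT PD1+Tim3-. All are more than counting noise gives, and each library was counted as 1 sample. Unequal spread between groups was not modelled. Exon lengths and gene positions come from GENCODE (GRCm38). The tests were tested on simulated data. Alternatives were RLE size factors, total counts, DESeq2 1.42.0, limma-voom (limma 3.58.1), no low-count filter, robust empirical Bayes, a replicate block, a fit of the compared libraries alone, and leaving out each library.

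The members and lists were chosen with earlier results of these data known. The text names all 10 members, every called gene of the pathway lists, and the 2 genes nearest to each member over the 8 libraries. Some genes that the naming rule would have picked are not reported here.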

Additional observations from a re-analysis of the deposited data

How the results depend on the processing

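With 2 libraries per group, counts of calls depended on the setting more than fold changes did. Members called in a comparison kept their sign there under every setting run. Calls are given as genes called, then members called. The numbers in the fit reported above were 82 and 1 for dKO over WT in PD1+Tim3+, 6 and 0 in PD1+Tim3-, 113 and 3 averaged over populations, 1298 and 6 for PD1+Tim3+ over PD1+Tim3- in dKO, 2223 and 8 in WT, 2978 and 8 averaged over genotypes, and 0 and 0 for the interaction. DESeq2 called 0 members for the genotype in PD1+Tim3+, and 861, 1222 and 1714 genes for the population in dKO, in WT and on average, and 104 genes for the interaction. Limma-voom called 0 genes for the genotype in PD1+Tim3-. Without the low-count filter the genotype gave 486 genes and 3 members in PD1+Tim3+, 232 and 3 in PD1+Tim3- and 269 genes on average, and the interaction 331 genes. Robust empirical Bayes gave 56 genes and 3 members in PD1+Tim3-, 171 genes on average and 4 for the interaction. Fits of the compared libraries alone gave 38 genes and 0 members in PD1+Tim3+ and 3 genes in PD1+Tim3-.

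Whether replicate numbers pair the samples is not stated. The correlation of deviations from the group means between equal numbers ran from -0.18 to 0.02, which cannot show whether libraries share a mouse. A replicate block gave 40 genes and 0 members for the genotype in PD1+Tim3+, 0 genes in PD1+Tim3-, 69 genes and 1 member (Dusp10) on average, and 716 genes and 3 members for the population in dKO.

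Leaving out a library also removes a residual degree of freedom. Genes called then ran from 6 to 413 and members from 0 to 2 for the genotype in PD1+Tim3+, 0 to 31 and 0 to 1 in PD1+Tim3-, and 39 to 139 and 1 to 3 on average. For the population they ran from 132 to 1392 and 0 to 5 in dKO, 433 to 2773 and 4 to 8 in WT, and 1623 to 3391 and 6 to 8 on average, and for the interaction from 0 to 323 and 0 to 0.

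Some fold changes near 0, none of them called, changed sign. Spry2 in the interaction was 0.0020 with RLE size factors and 0.0059 in DESeq2. With total counts, which moved the median of all genes to 0.17 for the population in WT and to -0.15 for the interaction, Dusp4 was 0.023 for the genotype in PD1+Tim3-, Spry1 0.13 for the population in WT, and Dusp4 -0.0053 and Spred2 -0.12 in the interaction. The cause was not tested. With a library left out, 22 further values of uncalled genes changed sign. For the genotype in PD1+Tim3+ Dusp4 then ran from -0.0071 to 0.21, Spry1 from -0.12 to 0.011 and Spred2 from -0.074 to 0.0014. In PD1+Tim3- Dusp1 ran from -0.059 to 0.23, Dusp4 from -0.13 to 0.058, Dusp5 from -0.30 to 0.27 and Spred1 from -0.12 to 0.32, and on average Dusp1 from -0.13 to 0.013, Dusp4 from -0.029 to 0.082 and Spry1 from -0.012 to 0.13. For the population Dusp6 ran from -0.049 to 0.35 and Spred1 from -0.44 to 0.064 in dKO, and Spry1 from -0.11 to 0.018 in WT, and in the interaction Spry2 from -0.22 to 0.18 and Spred2 from -0.020 to 0.073.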
